A study of Homo sapiens with 3 samples.

Results

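Transcript levels of 31 listed genes of cholesterol and fatty acid synthesis were examined in C33A cells, a line derived from a human cervical carcinoma. The genes were listed by their role in the pathway, with earlier results of these data known. A gene was measured when a probe set of the array carried its symbol and no other. This held for 29 of the 31 genes, out of 18417 genes measured in all. HSD17B7 was left out because its probe set also carries the pseudogene HSD17B7P2, and FDFT1 was not analysed here. The gene listed as SC5DL is now named SC5D.

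The data came from 3 separate cultures in exponential growth, kept in serum-containing medium and given no treatment, with total RNA from each culture on 1 Affymetrix Human Gene 1.0 ST array. All arrays therefore belong to 1 condition, and no contrast between conditions can be drawn. Values are log2 intensities after the Robust Multichip Average method (RMA), so 1 unit is a doubling of signal, and the number of arrays limits their precision. Brightness on an array also varies with the sequence and the number of the probes, which makes ranks between genes approximate. Genes were therefore placed by decile among all genes, decile 10 holding the highest levels, and no ratio between genes was taken. The arrays carry no detection call. A background bound of 6.41 log2 was set instead at the 95th percentile of 452 genes for smell and taste receptors, beta-defensins and hair keratin-associated proteins, called silent families here because few tissues use them. Of all genes, 56.5% had a mean above this bound. The line itself showed few epithelial markers, since of 8 marker genes only KRT18, at 7.75 ± 0.11 log2 (SD, n = 3), was above this bound. Of 5 leukocyte marker genes, PTPRC was at 8.82 ± 0.11 (SD, n = 3) and CD68 at 6.90 ± 0.06 (SD, n = 3), while COL1A1, at 7.24 ± 0.14 (SD, n = 3), and COL3A1, at 11.36 ± 0.06 (SD, n = 3), exceeded it among 6 fibroblast markers. None of 5 endothelial and none of 5 adipocyte markers did, and among 6 hepatocyte markers only APOA1 did, at 6.57 ± 0.09 (SD, n = 3). What these markers have to do with the lipid genes was not tested.

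Cholesterol is built from acetyl-CoA through mevalonate, farnesyl diphosphate, squalene and lanosterol, and fatty acids are built from the same acetyl-CoA through malonyl-CoA. Both routes are controlled by the sterol regulatory element-binding proteins (SREBPs), membrane-bound transcription factors that SCAP escorts from the endoplasmic reticulum to the Golgi apparatus for cleavage when sterols are scarce and that INSIG proteins hold back when sterols are plentiful. Growing cells use both products to make membranes. At target promoters SREBPs are known to act together with NF-Y, which binds the CCAAT box, and with Sp1, which binds GC boxes.

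Nearly the whole pathway had a high transcript level in C33A cells. Of the 29 measured genes, 28 lay in the 3 highest deciles, where 30.0% of all genes lie by construction, and 14 lay in decile 10. The exception was ACACB, in decile 5. All 29 had a mean above the background bound, against 56.5% of all genes. The median level was 9.70 log2, compared with 6.91 for all genes. Several genes stood close to the lower edge of decile 8, at 8.36 log2, so the count depends on the genes ranked with them: when only protein-coding genes were ranked, 24 of the 29 stayed in the 3 highest deciles. No test was made of the list against other genes.

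**Figure D1:**
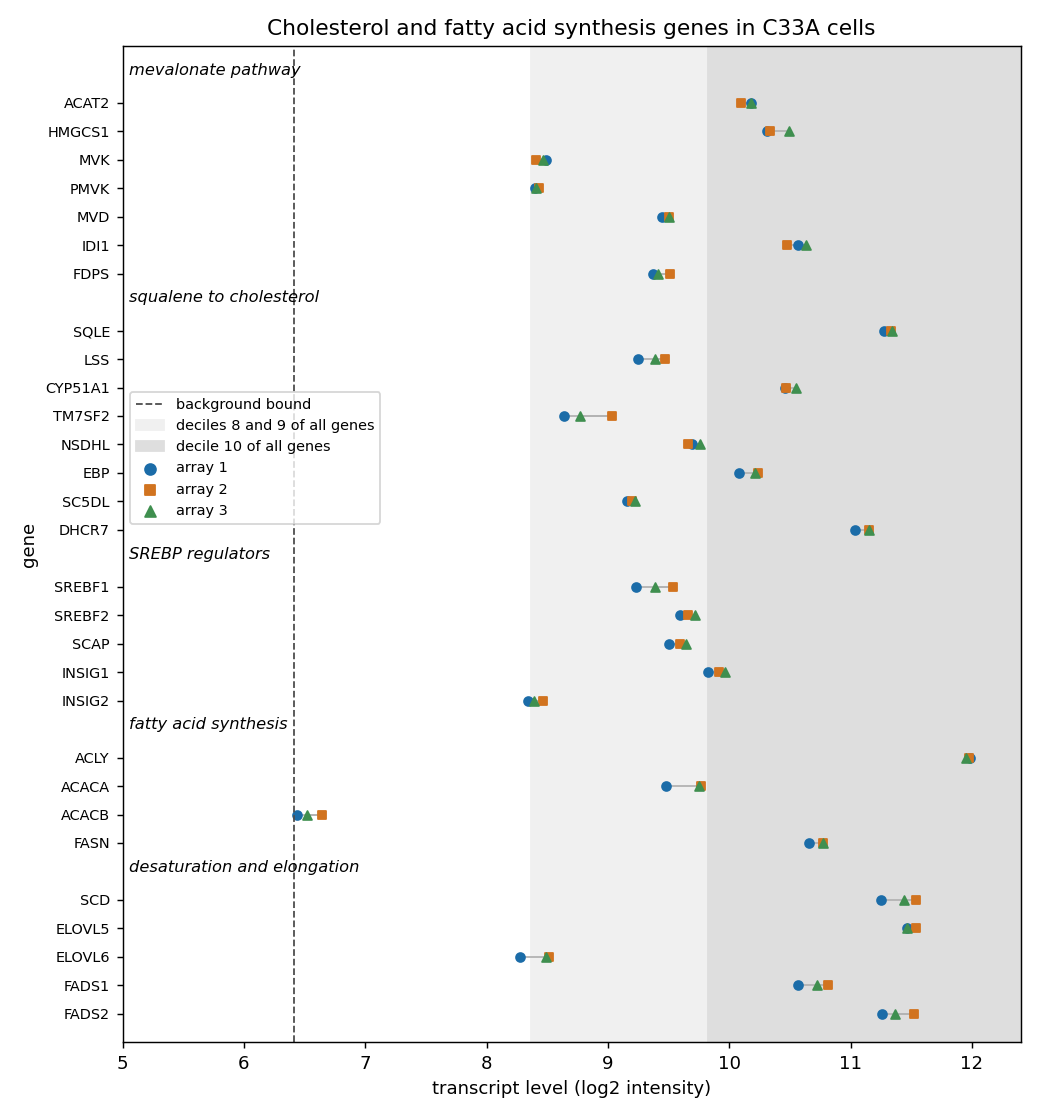
Log2 intensity (x axis) of each measured gene (y axis) on the 3 arrays, 1 marker per array, with genes in the order of the pathway; the dashed line is the background bound of 6.41 log2 and the shaded bands are deciles 8 and 9 and decile 10 of all genes. ACACB is the only gene left of the bands by its mean, at 6.53, and ACLY is farthest to the right, at 11.97.

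CCAAT boxes, which the choice of genes did not use, were found in the promoters of most but not all of these genes, and no test of enrichment was made. The RefSeq promoter table (build GRCh38.p14) holds windows of 300 bases, 250 before and 50 after an annotated start, for 27 of the 31 genes, HSD17B7 among them, with 38 windows in all. Windows of the same gene can overlap and are not independent. The CCAAT box (CCAAT, both strands) was found in 24 of the 38 windows (63.2%), compared with 34.6% of all 35116 windows and 36.4% of the windows of genes in the 3 highest deciles. At least 2 matches were found in 16 windows (42.1%), against 10.8% of all windows and 13.6% of those of the high deciles. Counted by gene, 20 of 27 genes had a match, compared with 39.7% of all genes of the table and 44.2% of genes in the 3 highest deciles. These were 5 of 6 genes of the mevalonate pathway, 7 of 8 from squalene to cholesterol, 2 of 5 SREBP regulators, all 3 fatty acid synthesis genes with a window, and 3 of 5 desaturase and elongase genes. No match was found for PMVK, CYP51A1, SREBF1, SCAP, INSIG2, ELOVL6 and FADS1, and the match in FADS2 lies after the start. Of the 50 matches, 48 began before the start, 29 of them between 50 and 150 bases before it. The distinct sites are fewer. A site in overlapping windows was counted in each, as in ACLY and SC5D, and CCAATTGG in IDI1 and NSDHL was counted as 2 matches.

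Other motifs were searched in the same windows. The GC box (GGGCGG, both strands) was found in 32 of the 38 windows (84.2%), compared with 45.0% of all windows and 69.9% of those of genes in the 3 highest deciles. The sterol regulatory element in its strict form (TCACNCCAC, both strands) was found in only 1 window (2.63%), that of SREBF2, against 1.13% of all windows. With 1 mismatch allowed, 16 windows (42.1%) held it, against 24.5% of all windows. An E2F motif (TTTNNCGC, both strands) was found in 4 windows (10.5%), in the genes MVK, INSIG2 and ACACA, compared with 6.89% of all windows and 11.3% of those of the high deciles. Matches of different motifs overlapped in 1 place. A match describes the letters of the window and not a bound site, and a missing match says nothing of the factor.

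The 160 bases before the annotated start are shown for 6 genes with CCAAT boxes and 2 without, so that their number and spacing in this stretch can be read. Capitals mark CCAAT or its complement ATTGG and, in SREBF2, the sterol regulatory element TCACCCCAC. The stretches are those of MVK at chr12:109573634-109573793 (plus strand), MVD at chr16:88663092-88663251 (minus strand), NSDHL at chrX:152830903-152831062 (plus strand), EBP at chrX:48521648-48521807 (plus strand), SREBF2 at chr22:41832945-41833104 (plus strand), ELOVL5 at chr6:53348951-53349110 (minus strand), PMVK at chr1:154936720-154936879 (minus strand) and SCAP at chr3:47475942-47476101 (minus strand).
MVK: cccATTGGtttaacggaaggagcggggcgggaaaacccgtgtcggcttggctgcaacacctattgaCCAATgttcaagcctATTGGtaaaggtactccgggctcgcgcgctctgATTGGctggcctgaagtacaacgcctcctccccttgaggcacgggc
MVD: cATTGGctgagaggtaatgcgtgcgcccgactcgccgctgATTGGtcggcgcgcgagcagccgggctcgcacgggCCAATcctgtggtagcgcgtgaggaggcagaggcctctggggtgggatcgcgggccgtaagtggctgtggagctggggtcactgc
NSDHL: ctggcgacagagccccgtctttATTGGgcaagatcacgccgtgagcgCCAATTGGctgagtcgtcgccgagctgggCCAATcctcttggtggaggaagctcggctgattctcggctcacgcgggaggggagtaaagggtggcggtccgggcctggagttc
EBP: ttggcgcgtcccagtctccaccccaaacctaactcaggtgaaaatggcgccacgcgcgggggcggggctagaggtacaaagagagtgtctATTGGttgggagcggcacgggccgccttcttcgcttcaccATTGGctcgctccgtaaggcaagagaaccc
SREBF2: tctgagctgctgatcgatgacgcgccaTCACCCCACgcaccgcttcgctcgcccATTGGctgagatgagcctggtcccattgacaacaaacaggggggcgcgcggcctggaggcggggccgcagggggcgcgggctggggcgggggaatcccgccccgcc
ELOVL5: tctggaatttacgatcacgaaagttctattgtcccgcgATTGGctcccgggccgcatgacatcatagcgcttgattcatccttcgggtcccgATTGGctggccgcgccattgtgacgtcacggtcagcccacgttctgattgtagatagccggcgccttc
PMVK: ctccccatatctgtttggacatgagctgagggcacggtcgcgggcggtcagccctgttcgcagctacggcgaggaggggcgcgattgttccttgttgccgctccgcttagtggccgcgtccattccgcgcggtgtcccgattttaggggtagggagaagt
SCAP: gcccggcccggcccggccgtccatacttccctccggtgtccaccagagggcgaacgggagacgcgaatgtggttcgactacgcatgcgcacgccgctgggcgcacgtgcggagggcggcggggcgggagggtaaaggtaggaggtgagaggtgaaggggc

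The MVK stretch holds 4 matches and that of MVD holds 3. In NSDHL 4 matches fall in the stretch, 2 of which overlap in CCAATTGG. EBP and ELOVL5 have 2 each. In SREBF2 a single CCAAT box follows the sterol regulatory element, and its stretch also holds 2 GC boxes. PMVK and SCAP show neither mark, but hold 1 and 2 GC boxes.

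**Figure D2:**
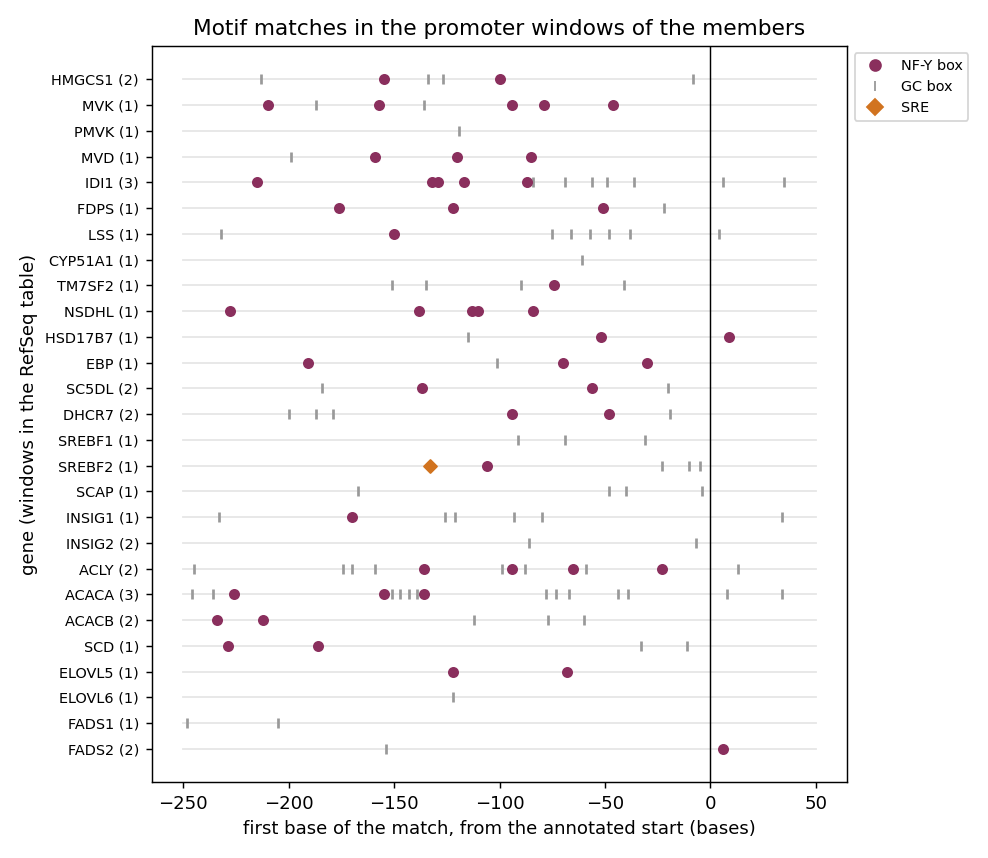
First base of each motif match relative to the annotated start (x axis, bases) for the 27 genes with a promoter window (y axis, number of windows in brackets, matches of several windows drawn on 1 line). Filled circles (NF-Y box in the key) are matches to CCAAT, ticks are GC boxes and the diamond is the strict sterol regulatory element of SREBF2. At least 1 circle is drawn for 20 of the genes.

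All 7 genes of the mevalonate pathway lay in the 3 highest deciles, and 3 of them in decile 10. ACAT2, the cytosolic thiolase that condenses acetyl-CoA, had levels of 10.18, 10.10 and 10.18 log2 on arrays 1, 2 and 3 (10.15 ± 0.05, SD, n = 3). HMGCS1, which makes HMG-CoA from its product, was at 10.31, 10.34 and 10.49 (10.38 ± 0.10, SD, n = 3), with array 3 above the other 2. IDI1, the isomerase of isopentenyl diphosphate, was at 10.57, 10.48 and 10.63 (10.56 ± 0.08, SD, n = 3). These 3 genes were in decile 10, and their order among the arrays differed from gene to gene. Both kinases of the route lay lower, in decile 8. Mevalonate kinase (MVK), with the 4 CCAAT boxes shown above, was at 8.49, 8.41 and 8.47 (8.45 ± 0.04, SD, n = 3), and phosphomevalonate kinase (PMVK), with none, was at 8.40, 8.44 and 8.41 (8.41 ± 0.02, SD, n = 3). The decarboxylase MVD was at 9.45, 9.51 and 9.51 (9.49 ± 0.03, SD, n = 3). FDPS, which makes farnesyl diphosphate, was at 9.37, 9.51 and 9.41 (9.43 ± 0.07, SD, n = 3). MVD and FDPS were in decile 9. FDPS was read from its own probe set, since the others listed for it also carry the pseudogene FDPSP2.

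The steps from squalene to cholesterol were covered by 8 measured genes, 4 in decile 10, 3 in decile 9 and 1 in decile 8. Squalene epoxidase (SQLE), a rate-controlling oxygenase, was at 11.27, 11.33 and 11.34 log2 (11.32 ± 0.04, SD, n = 3), and its arrays lay within 0.07 of each other. DHCR7, the last reductase of the Kandutsch-Russell route, was at 11.03, 11.15 and 11.15 (11.11 ± 0.07, SD, n = 3). The level of lanosterol demethylase (CYP51A1) was 10.46, 10.47 and 10.55 (10.49 ± 0.05, SD, n = 3) as the mean of 2 probe sets. Those probe sets lay apart, the lower at 9.98, although each lay within the range of decile 10. The isomerase EBP was at 10.08, 10.24 and 10.21 (10.18 ± 0.08, SD, n = 3). NSDHL, which removes the carboxyl group at carbon 4 of the sterol, was at 9.69, 9.66 and 9.76 (9.70 ± 0.05, SD, n = 3), and lanosterol synthase (LSS) was at 9.25, 9.47 and 9.39 (9.37 ± 0.11, SD, n = 3). The sterol desaturase SC5DL was the steadiest of this group, at 9.16, 9.20 and 9.22 (9.19 ± 0.03, SD, n = 3). TM7SF2, a sterol reductase of the inner steps, was the least steady of all 29 genes, at 8.64, 9.03 and 8.77 (8.81 ± 0.20, SD, n = 3), with array 2 above array 1 by 0.40.

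All 5 SREBP regulators were well above the background bound. SREBF1, whose products act mainly on fatty acid genes, had levels of 9.24, 9.53 and 9.39 log2 (9.39 ± 0.15, SD, n = 3). For SREBF2, whose product acts mainly on cholesterol genes, they were 9.60, 9.66 and 9.71 (9.66 ± 0.06, SD, n = 3). The escort SCAP was at 9.50, 9.59 and 9.64 (9.58 ± 0.07, SD, n = 3). These 3 genes were in decile 9, and array 1 gave the lowest value of each. Of the retention proteins, INSIG1, itself a known SREBP target, was in decile 10, at 9.83, 9.92 and 9.96 (9.90 ± 0.07, SD, n = 3). INSIG2 was in decile 8, at 8.34, 8.47 and 8.39 (8.40 ± 0.06, SD, n = 3), and its promoter windows hold no CCAAT box, while that of INSIG1 holds 1. Whether CCAAT boxes go with level was not tested.

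The fatty acid synthesis genes held both ends of the range. ATP citrate lyase (ACLY), which supplies cytosolic acetyl-CoA to both routes, was at 11.98, 11.97 and 11.95 log2 (11.97 ± 0.02, SD, n = 3), above 99.4% of genes by rank. Fatty acid synthase (FASN) was also in decile 10, at 10.65, 10.77 and 10.78 (10.73 ± 0.07, SD, n = 3). The acetyl-CoA carboxylases differed in place. ACACA, the cytosolic form that feeds FASN, was in decile 9, at 9.48, 9.77 and 9.75 (9.67 ± 0.16, SD, n = 3). Its array 1 was below array 2 by 0.29 and below array 3 by 0.28. ACACB, the mitochondria-bound form known for limiting fatty acid entry into mitochondria, was at 6.44, 6.64 and 6.52 (6.53 ± 0.10, SD, n = 3). Its mean stood 0.12 above the background bound, about as much as its SD, and fell below a bound set at the 99th percentile of the silent families, 7.89.

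Desaturation and elongation genes had the highest median of the 5 groups, 11.38 log2, with 4 of 5 genes in decile 10. The delta-9 desaturase SCD, which makes oleate, was at 11.25, 11.54 and 11.44 (11.41 ± 0.15, SD, n = 3). FADS2 and FADS1, the delta-6 and delta-5 desaturases of polyunsaturated fatty acids, are neighbours on chromosome 11. FADS2 was at 11.26, 11.52 and 11.36 (11.38 ± 0.14, SD, n = 3) and FADS1 at 10.56, 10.81 and 10.72 (10.70 ± 0.12, SD, n = 3). The arrays fell in the same order for both, but this order, array 2 highest and array 1 lowest, held for all 5 genes of the group. ELOVL5, the elongase of polyunsaturated fatty acids, was at 11.46, 11.54 and 11.47 (11.49 ± 0.04, SD, n = 3). ELOVL6, the elongase of palmitate, was in decile 8, at 8.27, 8.52 and 8.49 (8.43 ± 0.13, SD, n = 3).

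Array 1 gave the lowest value of most of these genes, by small amounts. Of the 29, 24 had their lowest value on array 1, compared with 31.6% of all genes and 36.3% of genes in the 3 highest deciles. The median gene was 0.09 log2 higher on array 2 than on array 1 and 0.11 higher on array 3 than on array 1, where the medians over all genes were -0.01 and -0.01. Between arrays 2 and 3 the median difference was -0.01 for these genes and -0.002 for all genes. The shift was not the same in each group. All 5 SREBP regulators and all 5 desaturase and elongase genes were lowest on array 1, with 7 of 8 genes from squalene to cholesterol and 3 of 4 fatty acid synthesis genes. In the mevalonate pathway 4 of 7 were, and MVK, ACAT2 and IDI1 were lowest on array 2. All 5 desaturase and elongase genes were highest on array 2, as were 15 of the 29 genes and 32.5% of all genes, and their median difference between arrays 2 and 1 was 0.25. Each culture has 1 array, so these differences have no replicate, no test was made, and the culture and the handling of array 1 cannot be told apart. Nor can fewer cells of a kind be told apart from less RNA per cell. Pearson's r between arrays over all probe sets was 0.993, 0.994 and 0.994. With the gene values forced to 1 common distribution, a check chosen after the data were seen, 23 of the 29 were lowest on array 1.

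**Figure D3:**
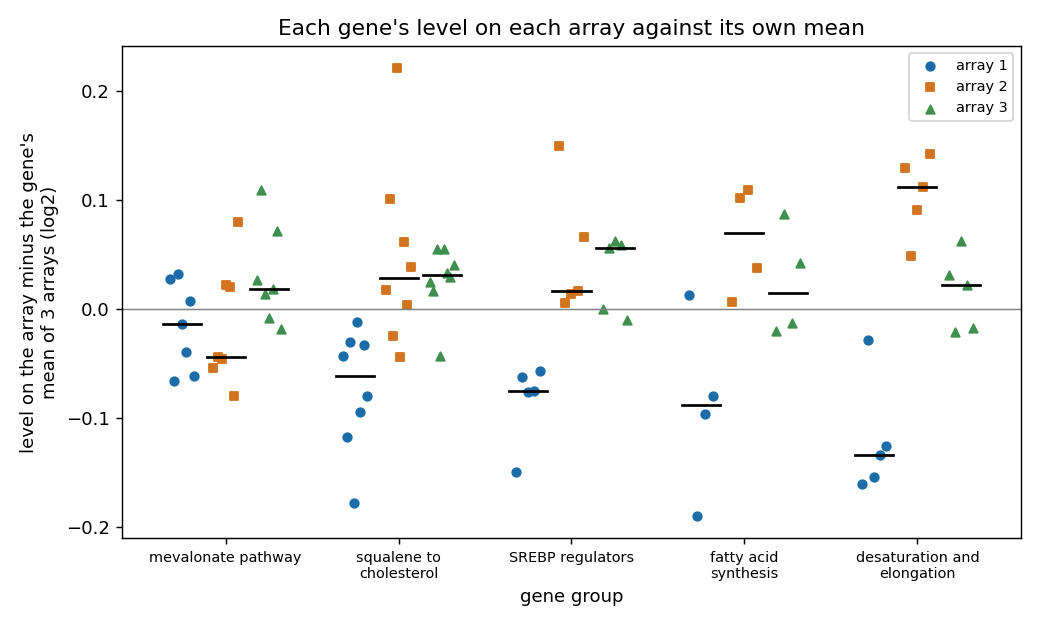
Level on each array minus the gene's own mean of 3 arrays (y axis, log2), by gene group (x axis); each marker is a gene on 1 array and black lines are group medians. Array 1 lies below 0 for all 5 SREBP regulators and all 5 desaturase and elongase genes, while the mevalonate pathway shows no such order.

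The spread over the cultures was above that of other genes of like signal for most of the list. The SD of 21 of the 29 genes exceeded the median SD of all genes in their decile, which 50.0% of genes exceed by construction. The largest SDs were those of TM7SF2, ACACA, SREBF1, SCD, FADS2, ELOVL6 and FADS1, from 0.12 to 0.20 log2, where the decile medians were 0.04 to 0.06. The smallest were those of ACLY and PMVK, at 0.02. Without array 1 the count was 16 of 29, without array 2 it was 20 and without array 3 it was 22.

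**Figure D4:**
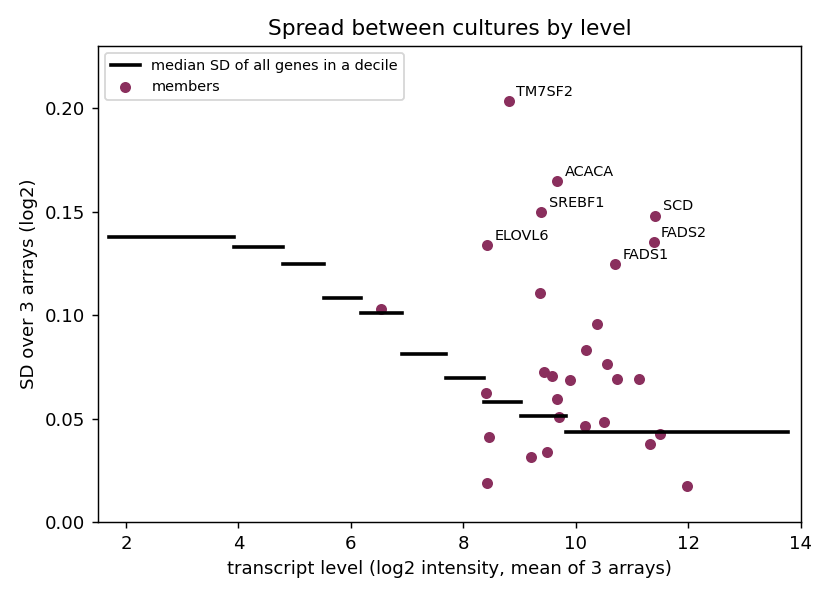
SD over the 3 arrays (y axis, log2) against the mean level (x axis, log2) of the 29 genes; black bars are the median SD of all genes in each decile, drawn over the range of levels of that decile. The 7 labelled genes have SDs from 0.12 to 0.20, while the bars of deciles 8 to 10 lie at 0.06, 0.05 and 0.04.

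Other genes of sterol and lipid metabolism were set against the same background bound, at 6.41 log2 only. Among all genes, 56.5% exceed this bound and 30.0% lie in the 3 highest deciles by construction. Among other enzymes of the isoprenoid and sterol routes, 7 of 8 measured genes exceeded the background bound and 5 were in the 3 highest deciles. They included LBR, a sterol reductase of the nuclear envelope that shares its reaction with TM7SF2, at 11.17 ± 0.03 log2 (SD, n = 3), and ERG28 at 11.06 ± 0.04 (SD, n = 3). The lowest were PDSS2, a subunit of the synthase of the coenzyme Q side chain, at 7.05 ± 0.09 (SD, n = 3), and IDI2, the muscle form of the isomerase, at 3.99 ± 0.07 (SD, n = 3). The list of SREBP processing and enzyme turnover genes had 9 of 9 genes above the bound. The site-1 protease MBTPS1 was at 10.47 ± 0.05 (SD, n = 3) and the membrane protein ERLIN1 at 10.65 ± 0.14 (SD, n = 3). At its lower end were the ubiquitin ligase subunit FBXW7 at 7.51 ± 0.10 (SD, n = 3) and PAQR3 at 6.47 ± 0.10 (SD, n = 3). PAQR3 was within its SD of the bound, and both lay below the bound of 7.89 at the 99th percentile of the silent families.

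Genes that take up, move and store cholesterol were above the bound in 8 of 12 cases, compared with 56.5% of all genes. SOAT1, which esterifies cholesterol, was at 9.90 ± 0.04 (SD, n = 3) and the lipoprotein receptor SCARB1 at 9.75 ± 0.10 (SD, n = 3). The receptor VLDLR, at 5.72 ± 0.06 (SD, n = 3), and the intestinal transporter NPC1L1, at 5.50 ± 0.29 (SD, n = 3), were below it. In the sterol efflux and liver X receptor list, 6 of 10 genes were above the bound, near the share of all genes. Only LPCAT3, a phospholipid acyltransferase at 9.59 ± 0.22 (SD, n = 3), reached the 3 highest deciles. Next came the receptor RXRA at 8.11 ± 0.03 (SD, n = 3), and the efflux transporters ABCA1, at 4.73 ± 0.10 (SD, n = 3), and ABCG5, at 4.52 ± 0.21 (SD, n = 3), were lowest. None of 11 genes of bile acid and steroid hormone synthesis exceeded the bound. The list ran from CYP46A1, a brain cholesterol hydroxylase at 6.16 ± 0.10 (SD, n = 3), and CYP7B1, at 5.51 ± 0.08 (SD, n = 3), down to CYP7A1, the rate-limiting enzyme of bile acid synthesis, at 3.75 ± 0.08 (SD, n = 3), and aromatase (CYP19A1) at 3.71 ± 0.08 (SD, n = 3).

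On the fatty acid side, 9 of 12 other lipogenic genes were above the bound and 6 in the 3 highest deciles. Among all genes, these shares were 56.5% and 30.0%. The elongation cycle enzymes HACD3, at 11.06 ± 0.02 (SD, n = 3), and TECR, at 10.91 ± 0.06 (SD, n = 3), were highest. Malic enzyme ME1, a source of NADPH, was in decile 1, at 3.45 ± 0.12 (SD, n = 3), and THRSP at 5.41 ± 0.02 (SD, n = 3), while ACSS2, which makes acetyl-CoA from acetate, was at 6.76 ± 0.06 (SD, n = 3). Relatives of the desaturases and elongases were more mixed, with 7 of 10 above the bound. The second stearoyl-CoA desaturase SCD5 was at 6.56 ± 0.10 (SD, n = 3) and FADS3 at 8.49 ± 0.03 (SD, n = 3). Of the elongases, ELOVL1, which acts on long saturated chains, was in decile 10 at 9.96 ± 0.04 (SD, n = 3). ELOVL4 was at 8.38 ± 0.01 (SD, n = 3), ELOVL7 at 6.90 ± 0.26 (SD, n = 3), ELOVL2 at 5.57 ± 0.05 (SD, n = 3) and ELOVL3 at 4.75 ± 0.08 (SD, n = 3). The ceramide desaturase DEGS1 was at 9.69 ± 0.07 (SD, n = 3). Of these 10 genes, 2 were lowest on array 1, as were 7 of the 12 other lipogenic genes and 31.6% of all genes. These counts were not tested against those of the pathway list.

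Genes that use fatty acids were measured as well. Of 12 genes of fatty acid activation and glycerolipid synthesis, 9 were above the bound, with AGPAT2 at 9.33 ± 0.06 (SD, n = 3) and ACSL1 at 9.23 ± 0.04 (SD, n = 3) highest and LPIN3, at 5.43 ± 0.30 (SD, n = 3), and ACSL5, at 4.32 ± 0.11 (SD, n = 3), lowest. Of 14 fatty acid oxidation genes, 13 were above it, 10 were in the 3 highest deciles and 7 were lowest on array 1. Among all genes, these shares were 56.5%, 30.0% and 31.6%. The trifunctional protein subunit HADHA was at 10.68 ± 0.05 (SD, n = 3) and the acyl-CoA dehydrogenase ACADVL at 10.61 ± 0.01 (SD, n = 3). ACADS was at 6.82 ± 0.05 (SD, n = 3) and the receptor PPARA, below the bound, at 6.35 ± 0.06 (SD, n = 3). The median level of the oxidation list was 9.21 log2.

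**Figure D5:**
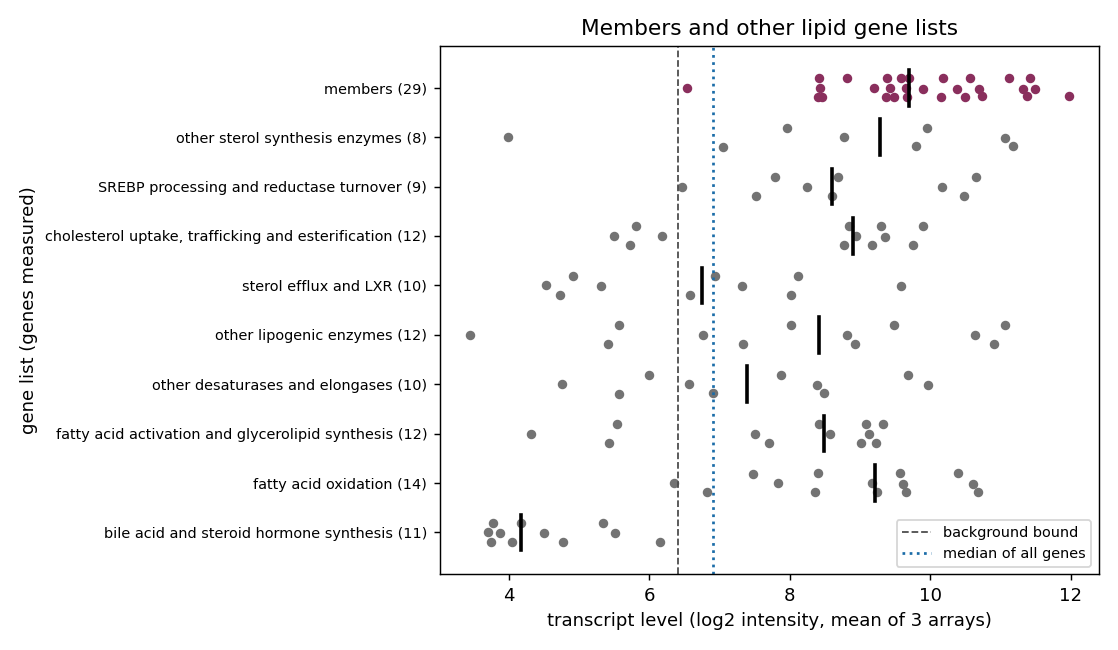
Mean log2 intensity of 3 arrays (x axis) of each measured gene, by list (y axis, number of genes in brackets); black bars are list medians, the dashed line is the background bound and the dotted line the median of all genes. The 29 genes of the pathway have a median of 9.70, while bile acid and steroid hormone genes, with a median of 4.18, all lie left of the bound.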

How the data were processed

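C33A cells were profiled on 3 arrays, 1 per culture. The authors extracted the scans with the Affymetrix software, normalized them by RMA, which the submitters' processing notes name, and used oneChannelGUI. What they deposited is a log2 intensity for each probe set. No software version is given in the sources used here. RMA draws the arrays towards 1 distribution, so a change shared by all genes would not show. Symbols came from the platform table and were brought up to date with RefSeq. The 19460 probe sets with 1 symbol were used, while 1754 with several and 12083 unnamed in that table were not. Where a gene had more than 1 probe set (769 genes) the mean was taken, which left 18417 genes, 18392 of them with a RefSeq symbol. Genes were ranked by mean level into 10 deciles. The listed genes, and those of the other lists, were chosen with earlier results of these data known. All listed genes are named; of other lists, the 2 highest, the 2 lowest and relatives of the listed genes are. Other members of these lists were not analysed here where no probe set with 1 symbol carries them. With 1 condition no test was made. No interval applies to array signal. Functions were tested on simulated data. Python 3.11.15, NumPy 2.4.6, pandas 2.3.3 and matplotlib 3.10.9 were used.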

Additional observations from a re-analysis of the deposited data

How the results depend on the processing

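All 29 measured genes stayed above the background bound under each alternative that kept them, except that 28 did so with the bound at the 99th percentile of the silent families, and 28 of 28 did so with only genes of 1 probe set. The count in the 3 highest deciles was 28 without any 1 of the arrays, 27 with only genes of 1 probe set and 24 among protein-coding genes. The median level ranged from 9.68 to 9.76 log2 when each array was left out in turn, the highest being without array 1. The count lowest on array 1 was 23 or 24 under each scaling and probe set choice tried, 23 of 28 within the 3 highest deciles, and the count highest on array 2 ranged from 15 to 19. The count of genes with an SD above their decile's median ranged from 16 to 22 when each array was left out. CYP51A1 is the only one of these genes with 2 probe sets, so the choice of probe set could change no other level. The share of promoter windows with the sterol regulatory element rose from 2.63% to 42.1% with 1 mismatch allowed. The array left out for the SD, the common distribution and the restriction to the high deciles were chosen after the data were seen. No paired analysis was possible because all arrays belong to 1 group. With 3 arrays and no detection call, a level under the bound does not show that a transcript is missing.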
